A study of Homo sapiens with 24 samples.

Results

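The genes described here are the 10 human genes that make microRNAs and carry out their silencing: the Argonautes AGO1, AGO2, AGO3 and AGO4, the GW182 proteins TNRC6A, TNRC6B and TNRC6C, and the processing enzymes and partner DICER1, DROSHA and DGCR8. They were taken by symbol, which gave 21 probes out of 47323 on an Illumina BeadChip array, and 10 genes of 20046 with a probe. All arrays came from DU145 cells, a long-established line derived from human prostate carcinoma, grown with 10% serum. One experiment measured total RNA after transfection with the mimic NC1, NC2 or miR-638, the first 2 being control mimics, with 4 arrays in each group. The other measured RNA recovered through a biotin-labelled NC1, NC2, miR-638 or miR-17 mimic, with 3 arrays in each group, so that a transcript's level there is its level among captured RNA. Whether replicates came from separate cultures is not labelled, so each p-value rests on array-to-array spread that may be technical. In bulk RNA, fewer cells holding a transcript and less of it per cell cannot be told apart.

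A primary microRNA transcript is cut in the nucleus by DROSHA, held by its RNA-binding partner DGCR8, and the hairpin is cut again in the cytoplasm by DICER1. One strand is loaded into an Argonaute, of which AGO2 alone among the human family is well known for cleaving a fully paired target. The loaded Argonaute binds a GW182 protein, which recruits the deadenylases that shorten the poly(A) tail of the target. A transfected mimic enters at the Argonaute step and does not need DROSHA or DGCR8.

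The mature sequences of the microRNAs used as mimic and bait are shown from RefSeq (GRCh38.p14), with the seed (bases 2 to 8, the part that pairs with targets) in capitals, since every comparison turns on which of them was added. The labels do not name the arm of miR-17, so both are shown.
hsa-miR-638: aGGGAUCGcgggcggguggcggccu
hsa-miR-17-5p: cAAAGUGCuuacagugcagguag
hsa-miR-17-3p: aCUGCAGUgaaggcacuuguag
The 25 bases of miR-638 lie at chr19:10718419-10718443 on the plus strand. The 23 bases of miR-17-5p lie at chr13:91350618-91350640 and the 22 of miR-17-3p at chr13:91350655-91350676, both on the plus strand. No seed is shared between them, and 5 of the 7 seed bases of miR-638 are G or C, against 3 in miR-17-5p and 4 in miR-17-3p. Sequences of the controls were not used here.

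Mean deposited signal ran from 300 to 463.3 on the mimic arrays and from 428.5 to 628.9 on the pulldown arrays. Between 43.56% and 47.78% of probes had a detection p under 0.05. The epithelial markers KRT8, KRT19, EPCAM and CDH1 were detected on all 24 arrays and KRT18 on 16. Of the luminal prostate markers, KLK3, KLK2, TMPRSS2 and FOLH1 were detected on 0 arrays. Blood and stromal markers were mostly absent (CD3E, COL3A1, LUM and MYH11 on 0, PTPRC on 3, HBB on 4, DCN on 6), while CD14 was detected on 24 and COL1A1 on 22. Mimic arrays with the same replicate number deviated together, with correlations of 0.605 to 0.704. Arrays of different number reached 0.667, and numbers 1 and 2 moved against 3 and 4 (-0.685 to -0.593). The arrays thus grouped by pair of replicates, and matching by single number is not shown. A fit with the replicate number as a block is therefore given where it changes a call. The 6 NC1 and NC2 pulldown columns carry exchanged names in the authors' table of processed values. Names follow the signal table here, which leaves the direction of NC2 against NC1 in the pulldown open and does not touch comparisons with the mean of both controls.

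Of the 21 probes, 14 were tested in the mimic experiment, 12 in the pulldown and 12 in both, and they covered 9 of the 10 genes. A probe was tested when it was detected on at least 4 mimic or at least 3 pulldown arrays, in each experiment separately. TNRC6C had 3 probes and none was tested, although ILMN_1873075 was detected on 2 of 12 mimic arrays. The other 4 probes left out everywhere were TNRC6A ILMN_1752409, TNRC6B ILMN_1725739 and ILMN_1771201, and DICER1 ILMN_1686725, while a sister probe of each gene was tested. TNRC6A ILMN_1739573 and DICER1 ILMN_1706100 were tested in the mimic experiment alone. Values below are normalized log2 signals of one probe, and no probe's level is set against another's, because probes differ in brightness for reasons other than transcript number.

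**Figure D1:**
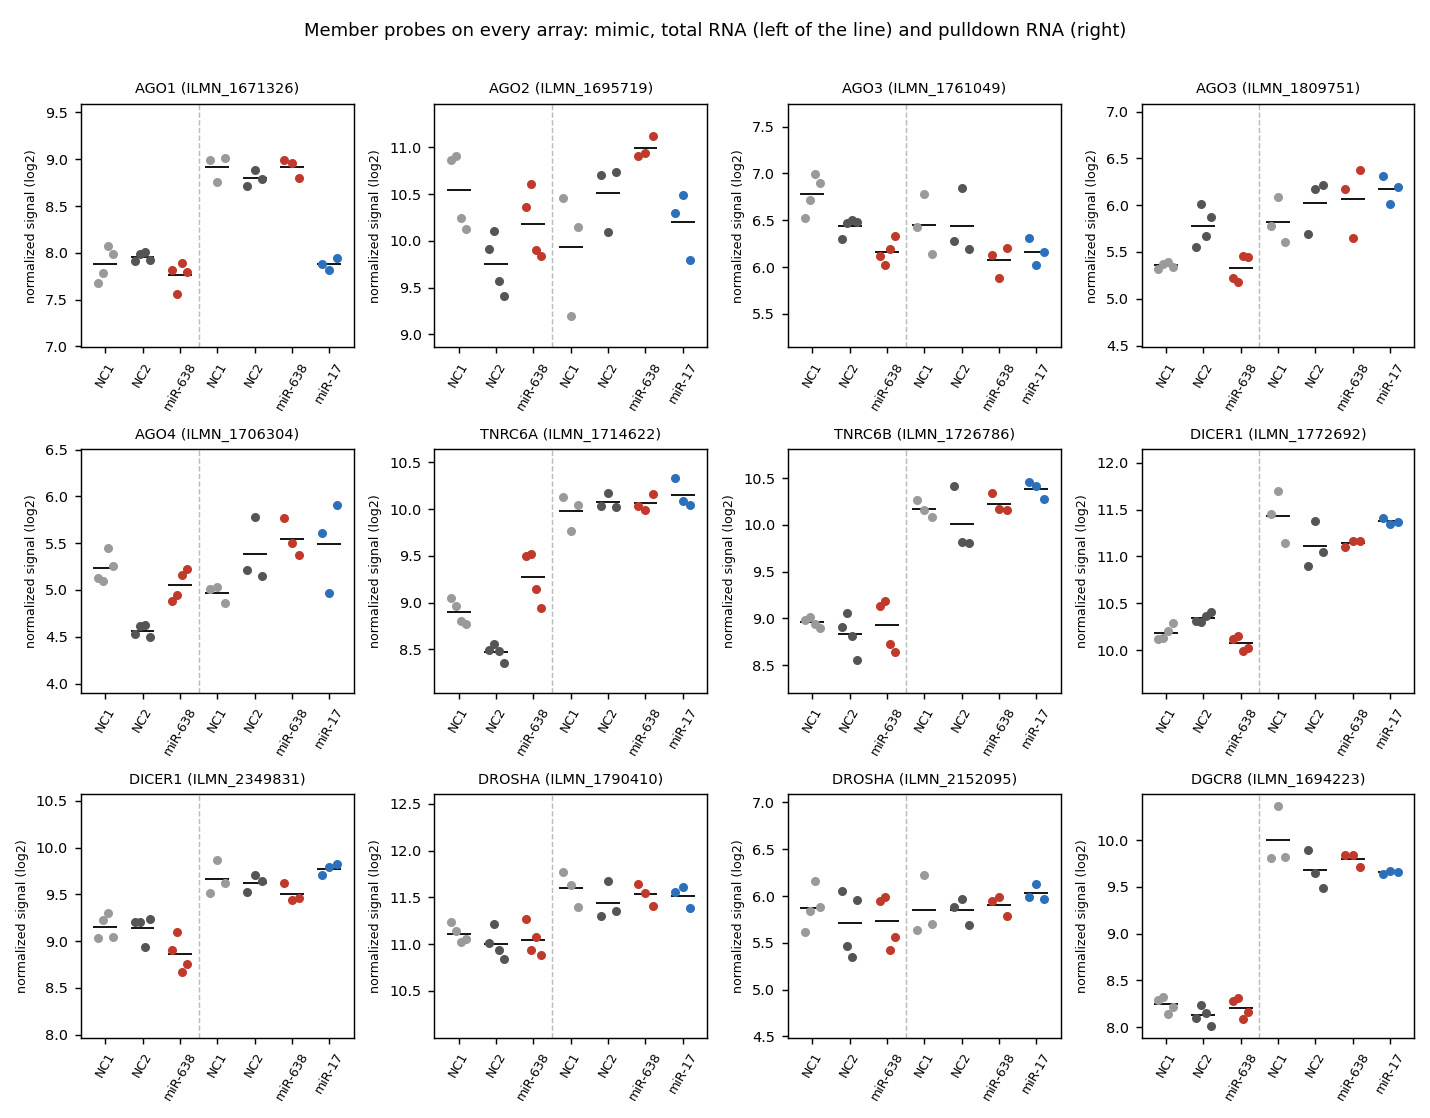
Normalized log2 signal of the 12 member probes tested in both experiments, 1 point per array and a bar at each group mean. Mimic groups (n = 4) lie left of the dashed line and pulldown groups (n = 3) right of it. AGO1 is low on all 3 miR-17 pulldown arrays, and AGO2 is highest on the 3 miR-638 pulldown arrays. The experiments were normalized separately, so heights are compared only on 1 side of the line.

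AGO1, an Argonaute without the slicing activity known for AGO2, was lower in RNA captured with miR-17 than with any other bait. Its probe (ILMN_1671326; gene at chr1:35869761-35930532, GRCh38.p14) read 7.88, 7.81 and 7.94 on the miR-17 arrays. It read 8.99, 8.76 and 9.02 with NC1, 8.72, 8.88 and 8.79 with NC2, and 8.99, 8.96 and 8.80 with miR-638. Every miR-17 array lay below all 9 others, by more than the whole spread of those 9. The share of all probes with such a gap was not computed. Set against the control arrays alone, 14.8% of all probes had miR-17 arrays wholly outside in either direction, and 6.63% wholly below. Against the mean of both controls the difference was -0.98 (SE 0.10, 95% interval -1.19 to -0.78), a 1.97-fold lower signal, with an adjusted p of 1.90e-05 in limma. It was the single member called of 12 tested, in a comparison where 11.3% of all probes were called and 4.73% were called lower. Leaving out each array in turn moved the difference only between -1.02 and -0.95. In the authors' processed values the difference was -1.12, with an adjusted p of 0.0791.

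Against miR-17, the miR-638 pulldown held 1.04 more log2 units of AGO1 (SE 0.11, adjusted p = 4.93e-05, limma), again the single member called of 12. In that comparison 6.39% of all probes were called and 2.6% were called higher. The authors' values gave 1.28, with an adjusted p of 0.104. Against the controls the miR-638 pulldown differed by 0.06 (95% interval -0.15 to 0.26). In total RNA AGO1 stayed between 7.56 and 8.07 on the 12 mimic arrays, and miR-638 mimic differed from the controls by -0.15 (95% interval -0.36 to 0.05, adjusted p = 0.580).

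AGO2, the slicing Argonaute, varied more between arrays than most members. Its probe (ILMN_1695719; gene at chr8:140520156-140642313) read 10.91, 10.94 and 11.12 in the miR-638 pulldown. It read 10.45, 9.20 and 10.14 with NC1, 10.71, 10.09 and 10.73 with NC2, and 10.30, 10.50 and 9.80 with miR-17. The 3 miR-638 arrays stood above the other 9, and the lowest value belonged to NC1 replicate 2. The difference from the mean of both controls was 0.77 (SE 0.23, 95% interval 0.27 to 1.27), a 1.70-fold higher signal, with an adjusted p of 0.0580 in limma. It was thus not called. No member was called among the 12 in this comparison, where 8.05% of all probes were, and 1 had an unadjusted p under 0.05.

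Whether AGO2 was called depended on the fit and on the control arrays. With every array kept, the adjusted p was 0.0454 with the replicate block, 0.0294 with array weights (a difference of 0.57) and 0.0472 with 1 probe per gene. The adjusted p was 0.0242 without NC1 pulldown replicate 1, with a difference of 0.90, and 0.0273 without NC1 pulldown replicate 2, with a difference of 0.58. Against NC1 alone, by the signal table's names, the difference was 1.06 (adjusted p = 0.0284). AGO2 was not called against NC2 alone, with quantile normalization alone, with median scaling or in the authors' values. Nor was it called when any miR-638 array was left out. AGO2 was the single member of 12 whose miR-638 arrays did not overlap the controls, against 12.8% of all probes. Against miR-17 the miR-638 pulldown was 0.79 higher (SE 0.27), with no overlap and an adjusted p of 0.107. In that comparison 5 of 12 members did not overlap, against 31.3% of all probes.

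In total RNA AGO2 took the order NC1, miR-638, NC2 within each replicate number. The 4 arrays read 10.87, 10.91, 10.25 and 10.12 with NC1, 10.36, 10.60, 9.90 and 9.83 with miR-638, and 9.91, 10.11, 9.57 and 9.41 with NC2. Numbers 3 and 4 were lower than 1 and 2 in every group. NC2 differed from NC1 by -0.79 (SE 0.23) with no overlap, at an adjusted p of 0.0519 without the replicate block and 5.91e-09 with it. The gap was -0.88 in replicates 1 and 2 and -0.69 in replicates 3 and 4. Because miR-638 lay between the controls, its difference from their mean was 0.03 (95% interval -0.39 to 0.45).

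**Figure D2:**
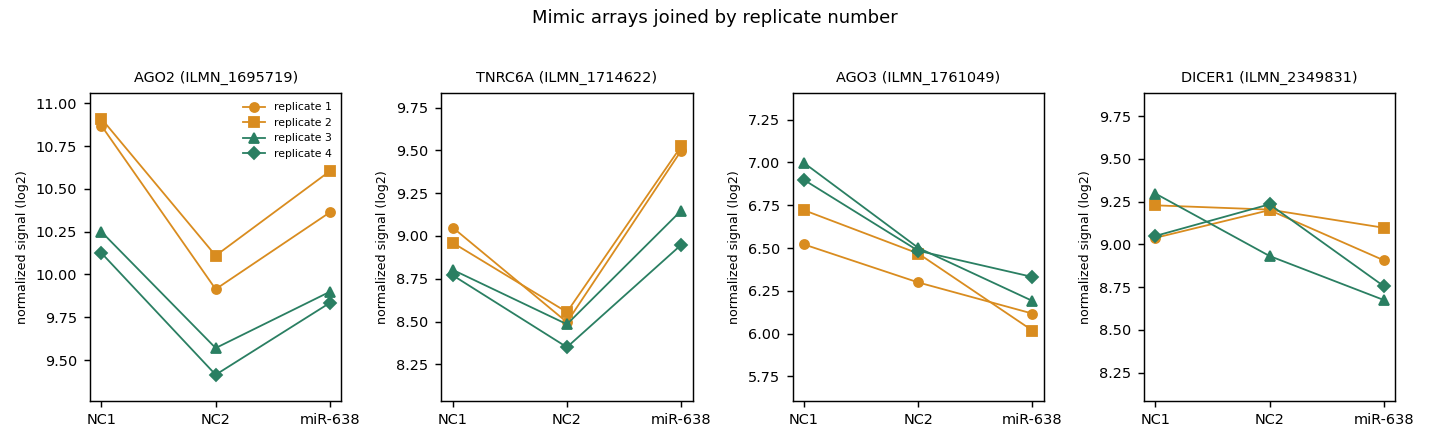
Normalized log2 signal of AGO2, TNRC6A, AGO3 and DICER1 probes on the 12 mimic arrays, with 1 line per replicate number. Orange marks replicates 1 and 2, and green marks 3 and 4. AGO2 and TNRC6A are lowest with NC2 in every replicate, and the AGO3 probe is lowest with miR-638 in every replicate.

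AGO3, a close relative of AGO1 beside it on chromosome 1 (chr1:35930718-36072500), had 2 tested probes that did not move together. ILMN_1761049 read 6.52, 6.72, 6.997 and 6.90 with NC1 mimic, 6.30, 6.47, 6.50 and 6.48 with NC2, and 6.12, 6.02, 6.19 and 6.33 with miR-638. The miR-638 value was the lowest of its replicate number in 4 of 4. Its difference from both controls was -0.45 (SE 0.11), with an adjusted p of 0.0506 and, with the replicate block, 0.0020. It was -0.43 in replicates 1 and 2 (adjusted p = 0.0474) and -0.46 in 3 and 4 (adjusted p = 0.0494). This probe was also called with quantile normalization alone and against NC1 alone, but not with median scaling or in the authors' values. ILMN_1809751 differed by -0.24 (adjusted p = 0.341) and read 5.18 to 5.46 with miR-638 against 5.31 to 6.02 in the controls.

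Between the control mimics the AGO3 probes ran in opposite directions. NC2 against NC1 was -0.35 for ILMN_1761049 (adjusted p = 0.121, blocked 0.0206) and 0.43 for ILMN_1809751 (adjusted p = 0.0523, blocked 0.0190). Where in the gene each probe lies was not used here. In the pulldown neither probe was called in any comparison, and miR-638 differed from the controls by -0.37 and 0.14.

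AGO4 (chr1:35807636-35857890), the third Argonaute of that chromosome 1 cluster, lay near the detection limit. Its probe (ILMN_1706304) was detected on 4 of 4 NC1 mimic arrays, 0 of 4 NC2 and 3 of 4 miR-638. The signals were 5.12, 5.10, 5.45 and 5.26 with NC1, 4.53, 4.61, 4.62 and 4.50 with NC2, and 4.88, 4.95, 5.16 and 5.23 with miR-638. All NC2 arrays were below every array of the other groups. AGO4 fell in NC2 against NC1 by 0.67 on this scale (SE 0.12, adjusted p = 0.00389, limma). Its probe passed the filter of 4 arrays only through the NC1 detections. Without a detection filter the adjusted p was 0.00893 (limma). Since NC2 was not above background, the fold is a bound, at least 1.24-fold lower. The bound sets the NC1 mean against the higher of the lowest detected signal and the probe's own signal on each NC2 array. AGO4 was the single member called of 14 in that comparison, where 7.63% of all probes were called and 3.94% were called lower. With quantile normalization and no background correction the difference was -0.42 and the adjusted p 0.0953. In replicates 1 and 2 alone the difference was -0.54 (adjusted p = 0.0664).

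With the replicate block, 5 of the 14 members were called between the control mimics, against 27% of all probes. Those were AGO2, AGO4, both AGO3 probes and TNRC6A. The groups did not overlap for 6 members, against 14% of all probes. In the pulldown, by the signal table's names, AGO4 was detected on 0 of 3 NC1 arrays and on 3 of 3 NC2, 3 of 3 miR-638 and 2 of 3 miR-17. By those names NC2 was at least 1.23-fold above NC1 there, without overlap, but the adjusted p was 0.389. The direction is open, because the authors' values exchange the 2 names. AGO4 was the single member of 12 without overlap between the control pulldowns, against 18.1% of all probes. From the mean of both controls it differed by 0.38 with miR-638 and 0.32 with miR-17 (adjusted p = 0.29 and 0.37, limma). No member of 12 was called between the control pulldowns, where 3.31% of all probes were, and 3 had an unadjusted p under 0.05.

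TNRC6A (chr16:24610205-24826218), one of the GW182 proteins that link Argonautes to the deadenylases, was the member called with miR-638 mimic. ILMN_1714622 read 9.50, 9.52, 9.15 and 8.95 with miR-638, 9.05, 8.96, 8.80 and 8.77 with NC1, and 8.50, 8.56, 8.48 and 8.35 with NC2. The miR-638 value was the highest of its replicate number in 4 of 4, although replicate 4 lay below 2 NC1 arrays numbered 1 and 2. It rose by 0.60 against both controls (SE 0.11, 95% interval 0.35 to 0.84), or 1.51-fold, with an adjusted p of 0.0151 in limma and 2.50e-06 with the replicate block. It was 1 of 14 members called, in a comparison where 2.3% of all probes were called and 1.36% were called higher.

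The size of that difference depended on the control. Against NC1 alone it was 0.38 (adjusted p = 0.213), and NC2 lay 0.42 below NC1 (adjusted p = 0.0666, blocked 3.62e-04). Other settings kept a similar size and lost the call: 0.52 when the first miR-638 array was left out (adjusted p = 0.0727), 0.51 when the second was (adjusted p = 0.0744) and 0.63 in the authors' values (adjusted p = 0.0871). The rise was 0.75 in replicates 1 and 2 and 0.45 in replicates 3 and 4. The difference between those values was not called (0.30, adjusted p = 0.485), and no member of 14 was called in that limma interaction, where 0.316% of all probes were, while 4 had an unadjusted p under 0.05. The second TNRC6A probe, ILMN_1739573, had a dim signal of 5.08 to 5.94 and differed by 0.08 (adjusted p = 0.925). In the pulldown TNRC6A was even between baits, at 9.76 to 10.33 on all 12 arrays.

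TNRC6B (chr22:40044834-40335808), a second GW182 protein, showed no call in either experiment. On ILMN_1726786 the miR-638 mimic arrays read 9.14, 9.19, 8.73 and 8.65, overlapping the controls, which read 8.56 to 9.05. The difference was 0.03 (95% interval -0.23 to 0.29, adjusted p = 0.971). The miR-17 pulldown arrays read 10.46, 10.41 and 10.28 against 10.27, 10.16 and 10.08 with NC1 and 10.42, 9.81 and 9.80 with NC2. This gave a difference of 0.29 (SE 0.12, adjusted p = 0.145). One control array, NC2 pulldown replicate 1, set that result: without it the difference was 0.40 and the adjusted p 0.00659.

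**Figure D3:**
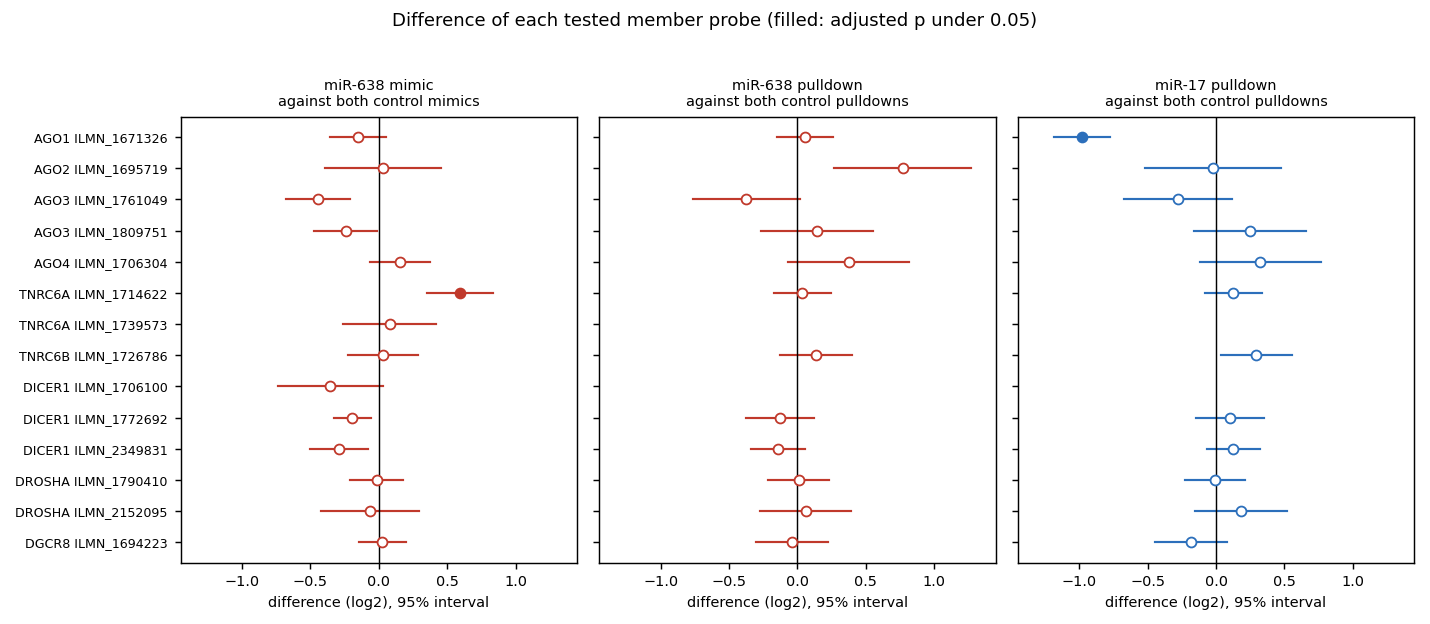
Difference in normalized log2 signal, with its 95% interval, of each tested member probe for miR-638 mimic, miR-638 pulldown and miR-17 pulldown against the mean of both controls. Filled points have an adjusted p under 0.05, which holds for TNRC6A with miR-638 mimic and AGO1 with miR-17 pulldown. The 2 probes without a point in the pulldown panels were not tested there.

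DICER1 (chr14:95086228-95158010), the cytoplasmic enzyme that cuts hairpins, had a negative difference with miR-638 mimic on all 3 of its tested probes, none of them called over the 12 arrays without the replicate block. The bright probe ILMN_1772692 read 10.12, 10.15, 9.99 and 10.02 with miR-638, 10.12, 10.12, 10.20 and 10.29 with NC1, and 10.32, 10.30, 10.36 and 10.41 with NC2. In replicates 3 and 4 the miR-638 arrays were below all controls, and in 1 and 2 they were level with NC1. The difference was -0.19 (adjusted p = 0.160, blocked 0.0271), with -0.08 in replicates 1 and 2 and -0.31 in 3 and 4, where it was called (adjusted p = 0.0165). Against NC2 alone it was -0.28 (adjusted p = 0.0457). ILMN_2349831 read 8.91, 9.10, 8.68 and 8.76 with miR-638 and 8.93 to 9.30 in the controls, a difference of -0.29 (adjusted p = 0.184, blocked 0.0115). In replicates 3 and 4 it was -0.41 (adjusted p = 0.0162). For neither probe was the difference between the pairs of replicates called in the limma interaction. It was 0.24 for ILMN_1772692 (adjusted p = 0.531) and 0.25 for ILMN_2349831 (adjusted p = 0.686). The dim probe ILMN_1706100 differed by -0.36 (adjusted p = 0.441).

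With the replicate block 4 of the 14 members were called for miR-638 mimic, against 14.6% of all probes. TNRC6A rose, and AGO3 ILMN_1761049 and the 2 brighter DICER1 probes fell. Over the 14 probes the median difference was -0.04, beside -0.01 over all probes tested, and the median size was 0.16, beside 0.11. No member's miR-638 mimic arrays lay wholly outside the controls, against 2.21% of all probes.

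DICER1 was called in no pulldown comparison when all pulldown arrays had equal weight and shared 1 estimate of the spread. The miR-17 arrays read 11.41, 11.34 and 11.37 on ILMN_1772692 and the miR-638 arrays 11.10, 11.16 and 11.16, so these groups did not overlap. The difference was -0.23 (adjusted p = 0.392). On ILMN_2349831 the miR-638 arrays (9.62, 9.44 and 9.46) were likewise below the miR-17 arrays (9.70, 9.79 and 9.83), by -0.27 (adjusted p = 0.174). Fitted on these 2 groups alone, the adjusted p was 0.0199 and 0.0350, and ILMN_2349831 was also called with array weights (-0.26, adjusted p = 0.0455). Control arrays overlapped both groups, at 10.90 to 11.70 on the first probe and 9.52 to 9.86 on the second. When the 2 control pulldown arrays numbered 2 were left out, a choice made after seeing the data, ILMN_1772692 was called with miR-17 (0.24, adjusted p = 0.0360).

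DROSHA (chr5:31400494-31532093), the nuclear enzyme that starts processing, was called in no comparison. Its bright probe ILMN_1790410 read 10.84 to 11.27 on the 12 mimic arrays and 11.30 to 11.77 on the 12 pulldown arrays. The miR-638 mimic difference was -0.02 (95% interval -0.21 to 0.18), and the miR-638 and miR-17 pulldowns differed from their controls by 0.01 (-0.21 to 0.23) and -0.01 (-0.23 to 0.22). These intervals hold changes of up to about 0.2 log2 units either way. The dim probe ILMN_2152095 gave no call, with differences of -0.06, 0.06 and 0.18 in the same order.

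DGCR8 (chr22:20080241-20111872), which holds the primary transcript for DROSHA, also gave no call. The miR-638 mimic arrays read 8.28, 8.31, 8.08 and 8.16 against 8.02 to 8.33 in the controls, a difference of 0.02 (95% interval -0.15 to 0.20). In the pulldown NC1 replicate 2 stood apart at 10.36, and the other 11 arrays read 9.48 to 9.90. The differences were -0.04 for miR-638 and -0.18 for miR-17 (adjusted p = 0.881 and 0.393). Over the 12 members the median difference was 0.05 for miR-638 pulldown and 0.12 for miR-17 pulldown, beside -0.002 and 0.001 over all probes tested.

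The control arrays of both experiments were also normalized together, to set captured RNA beside total RNA. This is a description without a test, because RNA type and experiment cannot be told apart. DGCR8 was 1.09 log2 units higher among captured RNA (9.60 ± 0.31, SD, n = 6, against 8.50 ± 0.10, n = 8). TNRC6A was 0.80 higher, TNRC6B 0.66, DICER1 ILMN_1772692 0.58 and AGO1 0.35. For these 5 of 12 probes every control pulldown array lay above every control mimic array, as for 16.6% of all 21330 probes. For 0 of 12 did it lie below, as for 19.1% of all probes. AGO3 ILMN_1761049 was 0.70 lower and AGO2 0.39 lower, both with overlap, and the second DICER1 probe differed by -0.04, unlike the first. The median over members was 0.07, beside -0.04 over all probes.

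**Figure D4:**
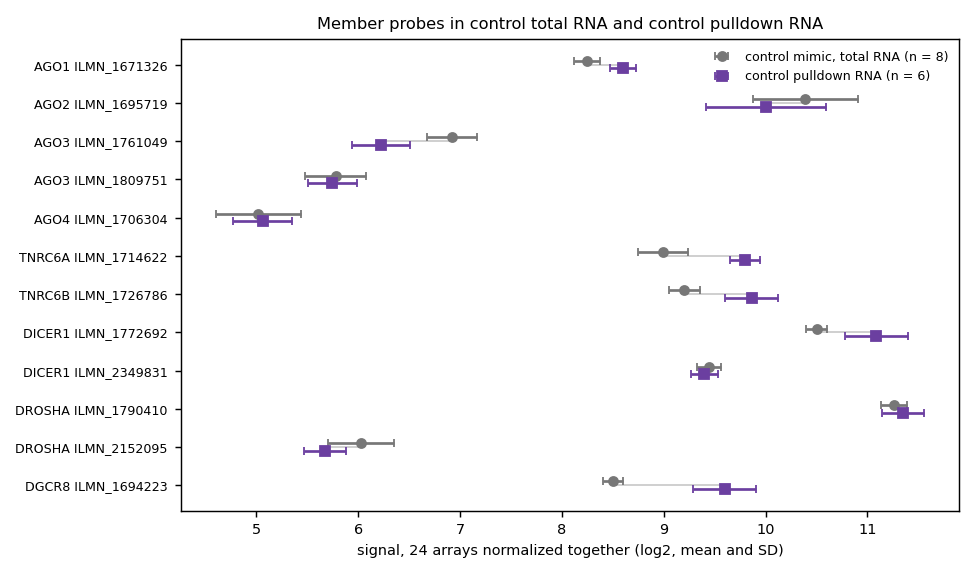
Mean log2 signal and SD of the 12 member probes on 8 control mimic arrays (total RNA) and 6 control pulldown arrays, all 24 arrays normalized together. The pulldown lies above without overlap of arrays for AGO1, TNRC6A, TNRC6B, DICER1 ILMN_1772692 and DGCR8.

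The wider pathway was read through 62 further genes in 5 lists, of which 55 were tested, each through its brightest probe. With miR-638 mimic 2 of 55 were higher than the mean of both controls and 0 lower, or 3.64% beside 2.85% of all genes. These were PABPC1, the cytoplasmic poly(A)-binding protein (0.28, SE 0.06, adjusted p = 0.0426, limma), and PARN, a deadenylase that also trims small RNAs (0.33, SE 0.07, adjusted p = 0.0281). Both lay between the control groups. PABPC1 had a mean of 13.15 with miR-638, 13.23 with NC1 and 12.53 with NC2, and PARN 8.86, 8.06 and 9.002 in the same order. With the replicate block 4 were higher and 4 lower, or 14.5% beside 17.7% of all genes.

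Between the control mimics 4 of the 55 were higher in NC2 and 5 lower, or 16.4% beside 9.25% of all genes. With the block 14 were higher and 10 lower, or 43.6% beside 31.4%. Among processing cofactors, the RNA-editing enzyme ADAR was higher (0.45, adjusted p = 0.0249) and TARBP2, the double-stranded RNA-binding partner of DICER1, was lower (-0.41, adjusted p = 0.0464). The Argonaute partner GEMIN4 was lower (-0.47, adjusted p = 0.00184), as was TSNAX, the partner of translin (-0.78, adjusted p = 0.0266). PARN was higher (0.94, adjusted p = 2.13e-05), while the poly(A)-binding proteins PABPC1 (-0.70, adjusted p = 1.03e-04) and PABPC4 (-0.53, adjusted p = 0.00137) were lower. Of the decay enzymes, the 5′ to 3′ exonuclease XRN1 was higher (0.51, adjusted p = 0.00964), as was the decapping activator DCP1A (0.68, adjusted p = 0.0471).

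In the miR-17 pulldown 10 of the 55 pathway genes were higher and 1 lower, or 20% beside 12.9% of all genes. CNOT11, a subunit of the CCR4-NOT deadenylase, was 0.97 higher (SE 0.07, adjusted p = 9.53e-07). DCP2, the decapping enzyme, was 0.63 higher (adjusted p = 8.77e-04), and EDC3, an enhancer of decapping, was also 0.63 higher (adjusted p = 0.00635). These differences were of the opposite sign to that of AGO1 in the same RNA. The other 7 higher genes were PARN (0.51), PABPC1 (0.41), NCBP1 of the nuclear cap-binding complex (0.40), the precursor-binding protein KHSRP (0.40), CNOT4 (0.34), GEMIN4 (0.33) and the chaperone HSPA8 (0.27). PABPC1 differed by more than 0.41 between the control pulldowns. The lower gene was XRN2, a nuclear exonuclease (-0.34, adjusted p = 0.0378).

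In the miR-638 pulldown 5 of 55 were higher and 3 lower, or 14.5% beside 9.46% of all genes. PABPC4 was 0.56 higher (adjusted p = 0.00125). HSP90AB1, a chaperone of the kind that helps load Argonautes, had a difference of -0.55 (adjusted p = 3.48e-04), and it also differed by 0.74 between the control pulldowns. The other higher genes were TSNAX (0.72), KHSRP (0.46), the HSP90 partner FKBP4 (0.41) and PABPC1 (0.36), and the other lower ones were ADAR (-0.38) and HSPA8 (-0.23). PABPC1 and TSNAX differed more between the control pulldowns, by 0.88 and 0.83, than from their mean here. That control difference was not called for TSNAX (adjusted p = 0.0594, limma). Set directly against miR-17, miR-638 had 1 of 55 higher, PABPC4 (0.45), and 8 lower, or 16.4% beside 7.56% of all genes. The lower genes were EDC3 (-0.95), CNOT11 (-0.81), DCP2 (-0.70), PARN (-0.51), HSPA8 (-0.50), NCBP1 (-0.45), HSP90AB1 (-0.41) and CNOT4 (-0.39). Between the control pulldowns, by the signal table's names, 2 of 55 were higher in NC2 and 0 lower (3.64% beside 4.04%), PABPC1 (0.88) and HSP90AB1.

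By likeness over the 24 arrays, each centred on its experiment's mean, AGO2 was followed most closely by DYRK2 (Pearson r = 0.92), COA3 (0.89) and ZNF562 (0.86) among 21330 probes. DICER1 ILMN_1772692 was followed by DNAAF9 (0.79), ZNF155 (0.77) and ATG5 (0.76). TNRC6B was followed by SLC35H1, ABHD12 and ASB6, at 0.83, 0.83 and 0.82. These are descriptions over arrays that share treatment groups.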

How the data were processed

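Total RNA (12 arrays) and pulldown RNA (12 arrays) were hybridized to Illumina BeadChips. Per the file headers, the deposited signal table holds non-normalized intensity and a detection p-value for each probe. The authors' deposited value table holds log2 values, equal to the signal floored at 16 for 1 array and normalized in an unstated way elsewhere. The design text names another array maker than the kit and probe identifiers do. The scanner software is not given in the sources used here. Genes were named from the platform annotation (30113 probes with 1 symbol, 8 with several, 17202 unlisted) and placed by RefSeq.

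Signals were normalized within each experiment with neqc (offset 16, background from detection p, quantile) and tested per probe with limma 3.58.1 in R 4.3.3, two-sided, with Benjamini-Hochberg adjustment over 22469 mimic and 23742 pulldown probes. Calls use an adjusted p under 0.05. Every member probe was named, with up to 3 called genes of smallest p per pathway list and comparison (TSNAX in the miR-638 pulldown, the fourth of its list, was added after its values were seen), and the 3 genes most like AGO2, DICER1 and TNRC6B. Members and lists were chosen with earlier results of these data known. Replicate numbers pair the mimic arrays (same-number correlations 0.605 to 0.704) but not the pulldown arrays (-0.342 to 0.587). On simulated data the miR-638 mimic comparison recovered 53% of probes changed by 0.6 log2 units and 87% of those changed by 1. The other comparisons recovered 37% to 57% and 75% to 91%, with the control pulldowns lowest in both. Array number limits the precision. Alternatives covered normalization, filter, weights, blocks and arrays left out. Figures used matplotlib 3.10.9.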

Additional observations from a re-analysis of the deposited data

Results flagged for a closer look

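Among 42 sets of a member probe and a mimic group of 4 arrays, 2 held an array farther from the others than Dixon's 95% criterion allows, and chance alone flags about 1 set in 20. AGO3 (ILMN_1761049) read 6.299 on NC2 mimic replicate 1, while the other 3 NC2 arrays read 6.468 to 6.501, so the gap took 0.833 of the range. DICER1 (ILMN_2349831) read 8.932 on NC2 mimic replicate 3, while the other 3 read 9.2 to 9.234, and the gap took 0.888. Both are NC2 control arrays.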

How the results depend on the processing

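For miR-638 mimic against both controls the count of 1 became 4 with the replicate block or the pair of replicates as block and in replicates 3 and 4 only, 2 with quantile normalization alone, with probes detected on every array, with 1 probe per gene and in replicates 1 and 2 only, 3 against NC2 alone, and 0 in the authors' values. For NC2 against NC1 mimic the count of 1 became 5 with either block, 3 with array weights or in replicates 3 and 4, and 2 in the authors' values, with every-array detection, with the 2 groups fitted alone, with 1 probe per gene or in replicates 1 and 2. The miR-638 pulldown count of 0 became 1 (AGO2) with array weights, 1 probe per gene, the replicate block, NC1 alone as control, or the control arrays numbered 2 left out. The miR-17 pulldown count of 1 became 0 in the authors' values and 2 with those arrays left out. For miR-638 against miR-17 pulldown the count of 1 became 0 in the authors' values, 3 with array weights (AGO2, DICER1) and 4 with the 2 groups fitted alone. Leaving out each array gave 0 to 2, 1 to 2, 0 to 1, 1 to 2 and 1 to 1 for these comparisons, and 0 to 0 for the control pulldowns and the interaction. The pulldown numbers do not pair the arrays, and the block changed no other member's pulldown call. Among pathway genes in the pulldown it ended the PARN call for miR-638 against miR-17 (adjusted p = 0.0674) and added PTGES3 for miR-17 (0.0467) and TSNAX for NC2 against NC1 (0.0494).

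Counts over all probes moved more. They went from 517 to 3280 with the block and 235 with median scaling for miR-638 mimic, and from 1715 to 6074 with the block and 1134 with median scaling for NC2 against NC1 mimic. They went from 1912 to 621 with median scaling, 3242 with weights and 136 in the authors' values for miR-638 pulldown, and from 2690 to 1190, 4038 and 285 for miR-17 pulldown. They went from 1518 to 586, 3340 and 187 for miR-638 against miR-17, and from 787 to 242 and 6 (median scaling, authors' values) for the control pulldowns. With the 2 groups fitted alone, 3690 of 23742 probes were called for miR-638 against miR-17. For miR-638 mimic, 2831 of 22469 were called in replicates 1 and 2, 961 in replicates 3 and 4, and 1141 against NC2 alone. For NC2 against NC1 mimic, 4843 were called in replicates 1 and 2 and 2837 in replicates 3 and 4. Of the called members' values, 77 kept their call and 8 lost it; none changed sign. Apart from the settings' own construction, the cause was not tested. Signal near background limits AGO4, TNRC6C and the dim probes.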
